A study of Oryctolagus cuniculus with 16 samples.

Results

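The proteasome genes described here were taken by name, as every gene symbol that begins with PSMA to PSMG followed by a digit and that had a count in at least 1 library. The choice of these genes was made with earlier results of these data known. There were 41 such genes among the 11925 symbols with a count. They comprise 14 genes of the core (4 of the alpha ring, 7 constitutive genes of the beta ring and the immunosubunits PSMB8, PSMB9 and PSMB10), 18 of the cap (the PSMC and PSMD genes), the activators PSME1, PSME2 and PSME3, the inhibitor PSMF1, the assembly chaperones PSMG1 to PSMG4, and PSMC3IP. PSMC3IP carries a proteasome name but encodes a factor of meiotic recombination. PSMA8 and PSMB11 were listed without a count in any library, and PSMA2, PSMA5, PSMA7, PSMC5, PSMD9, PSME4 and PSME3IP1 were not analysed here.

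RNA was measured in 4 female New Zealand white rabbits 24 h after surgery, when rabbits 3 and 4 had undergone a sham operation and rabbits 5 and 6 had both common carotid arteries ligated, which raises flow and wall shear stress (WSS) in the basilar artery. From each rabbit, strips of intima, which holds the endothelial cells (ECs), and of media, which holds the vascular smooth muscle cells (VSMCs), were cut by laser microdissection from the straight basilar artery (BA) and from the basilar terminus (BT), giving 16 libraries. Each library pooled the strips of about 10 sections of 1 animal, and no rabbit was left without an operation. Sham and ligated tissue came from different rabbits, with 2 per group, while the 4 tissues of a rabbit share that animal.

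The proteasome is the main protease of the cytosol and nucleus and degrades proteins that carry ubiquitin chains. Its barrel-shaped core is built from an outer pair of alpha rings, which gate the entrance, and an inner pair of beta rings, which hold the proteolytic sites. The cap binds ubiquitin chains, removes them through the deubiquitinase PSMD14, and unfolds and feeds in the substrate with the PSMC ATPases. In cells exposed to interferon the constitutive catalytic subunits PSMB5, PSMB6 and PSMB7 can be replaced by PSMB8, PSMB9 and PSMB10, and the alternative activators PSME1 and PSME2 are induced alongside, which favours peptides for presentation on major histocompatibility complex class I. In the vessel wall, proteasomal degradation takes part in the turnover of signalling, cell cycle and contractile proteins.

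Expression is given in CPM, the count of a gene relative to the scaled total of its library, after TMM scaling, which corrects library size for differences in composition. CPM is not divided by gene length, so levels are compared between libraries and not between genes. Total counts on named genes ran from 5211886 to 17686105 in the intima and from 2154863 to 11219236 in the media. At the BA, both ligated libraries of each layer were shallower than both sham libraries, and at the BT the depths overlapped. The quasi-likelihood F test of edgeR was used for differences between groups. Its q-value is the p-value after Benjamini-Hochberg adjustment over all genes tested in that comparison, with a threshold of 0.05. Log2 differences carry the standard error (SE) of the fit.

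The labels of the layers were checked with marker genes. The summed CPM of the endothelial markers (10 of 11 in the table) was 1236 to 5942 in the intima and 463 to 1667 in the media, and that of the smooth muscle markers (8 of 10) was 12643 to 80899 in the intima and 73347 to 125417 in the media. The intima thus held a considerable share of smooth muscle RNA, and in the sham BA intima of rabbit 3 the smooth muscle sum of 80899 lay within the range of the media. AQP4 and MOG of the brain parenchyma and the B cell marker MS4A1 had no count in either layer. The markers of leptomeningeal and adventitial cells (8 of 9, with DPEP1 at 0 in all libraries) were lower in both ligated than in both sham libraries of 3 tissues, with 4635 to 15989 against 193 to 419 CPM in the BT intima, 12064 to 18294 against 3972 to 4489 in the BA media and 10838 to 14499 against 3036 to 4504 in the BT media. In the BA intima they overlapped, with 2904 to 8590 in sham and 471 to 3532 in ligated rabbits. The smooth muscle markers also differed between the groups without overlap in the media, where they were higher after ligation at the BA, with 80249 to 90425 in sham and 107882 to 125417 in ligated libraries, and lower at the BT, with 79454 to 109603 against 73347 to 78588. In the intima they overlapped. These shifts stand beside every comparison with ligation below, as do the depth and the aligned share of reads. Their part in those results was not tested. In tissue RNA, fewer cells of a type and less RNA per cell cannot be told apart.

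With ligation, most proteasome genes had higher values in each of the 4 tissues, by about 1.4 to 1.7 times in the sums of the core and by about 1.3 to 1.8 times in those of the cap, whereas the immunosubunit PSMB10 lay lower in 3 of the tissues. PSMD14, the deubiquitinase of the cap, was the 1 gene that passed the threshold, in the media of the BA and of the BT. The median log2 difference of the tested proteasome genes was 0.48 (BA) and 0.63 (BT) for intima, and 0.71 (BA) and 0.51 (BT) for media, beside -0.10, -0.13, -0.15 and 0.03 over all genes tested. Values were above 0 for 35 of 40, 34 of 41, 31 of 39 and 35 of 39 tested proteasome genes, in the same order of tissues, against 45.8%, 45.1%, 44.7% and 50.8% of all genes. The tested genes are those with a group mean above 1 CPM when TMM scaling is computed from the libraries of that comparison alone, whereas the CPM printed here are scaled over all 16 libraries. PSMC3IP passed this filter in the BT intima alone and PSMC4 in the intima alone, so they could enter only where they were relatively high.

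Both ligated libraries lay above both sham libraries for 20 of 40 proteasome genes in the BA intima, beside 15.4% of all genes tested. The count was 28 of 41 in the BT intima beside 20.4%, 26 of 39 in the BA media beside 21%, and 24 of 39 in the BT media beside 25.4%. In the other direction, with both ligated below both sham libraries, there were 2, 4, 4 and 2 proteasome genes, beside 20%, 25.6%, 26% and 23.1% of all genes. PSMA1, PSMB3, PSMB4, PSMB5, PSMB7, PSMC1, PSMD2, PSMD14, PSME3 and PSMG4 lay above sham in all 4 tissues, 12 further genes did so in 3, 9 in 2, 5 in 1 and 5 in none. These 4 tissues came from the same 4 rabbits and are not independent of each other. At an unadjusted p under 0.05, 1 (BA) and 5 (BT) proteasome genes were higher in ligated intima, and 16 (BA) and 10 (BT) in ligated media, beside 2.52%, 4.3%, 6.62% and 7.96% of all genes. PSMB10 was the 1 gene lower at that level, in the BT intima and the BA media, beside 7.33% and 6.98% of all genes, and no proteasome gene was lower at that level in the BA intima (3.43% of all genes) or the BT media (7.99%).

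Past the q-value threshold there were 0 proteasome genes for the BA intima, where 0% of all genes passed, and 0 for that of the BT (0%). In the media there was 1 at the BA (0.807% of all genes) and 1 at the BT (2.35%). DESeq2 on the same counts called 1, 2, 6 and 3 proteasome genes, beside 1.29%, 6.37%, 5.28% and 6.3% of all genes, so that its share of the 41 and 39 tested genes at the BT was near that of all genes. The 6 in the BA media were PSMD14, PSMA3, PSMA6, PSMB4 and PSMC6, all higher, and PSMB10, lower. Those in the BT media were PSMD14, PSMD5 and PSMB5, all higher, in the BT intima PSMD1, higher, and PSMB10, lower, and in the BA intima PSMD14, higher.

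**Figure D1:**
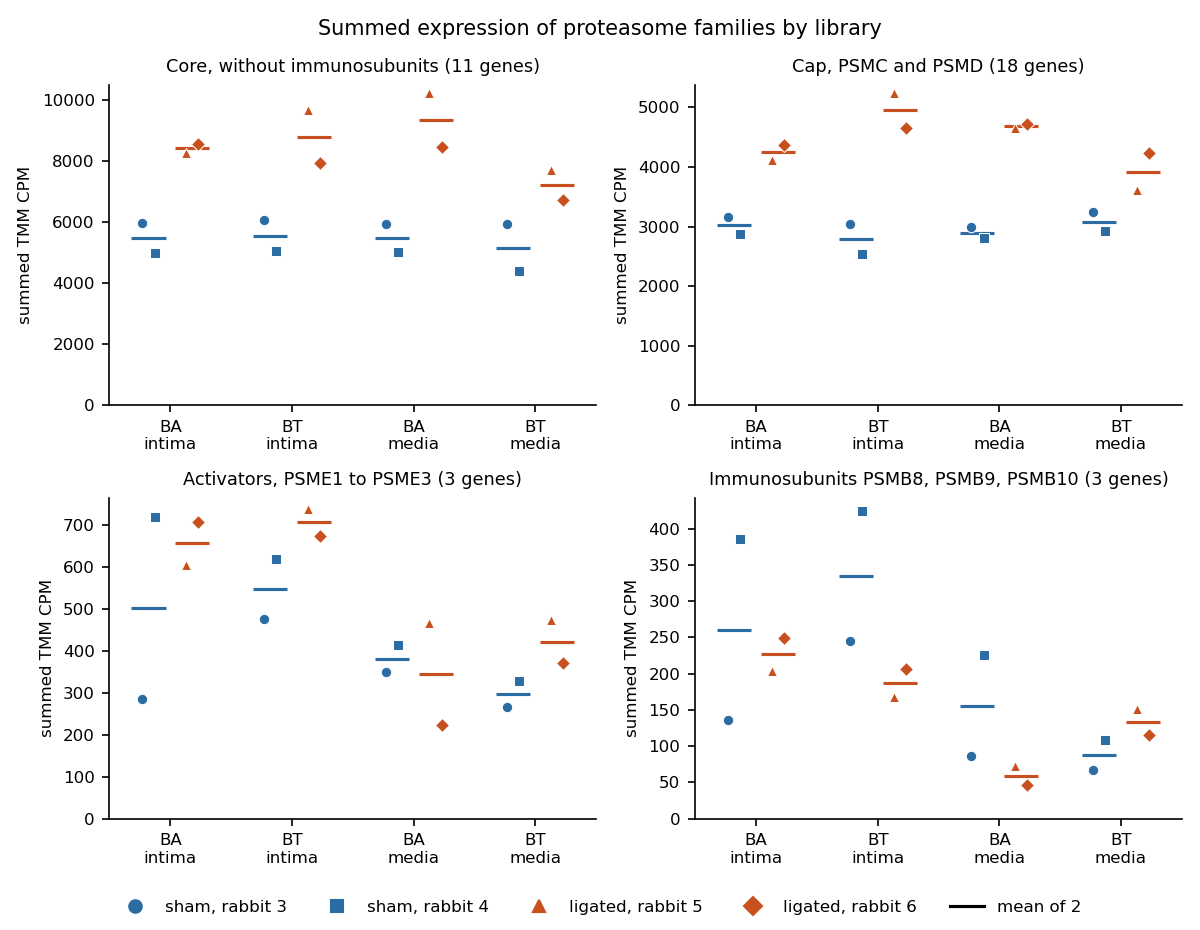
Summed TMM-scaled CPM (vertical axes, each from 0) of the core genes without the immunosubunits, the cap genes, the activators and the immunosubunits in each of the 16 libraries, by tissue. Symbols are single rabbits (blue sham, orange ligated) and lines are the means of 2. For core and cap, both ligated rabbits sit above both sham rabbits in all 4 tissues, with core means of 8410 against 5485 CPM in the BA intima, while activators and immunosubunits overlap in some tissues.

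Without PSMA2, PSMA5 and PSMA7, which were not analysed here, the 11 core genes other than the immunosubunits form part of the proteolytic barrel. Their summed CPM in the BA intima was 5974 and 4996 in sham rabbits 3 and 4 and 8254 and 8567 in ligated rabbits 5 and 6. In the BT intima the sums were 6071 and 5038 against 9666 and 7923. In the BA media they were 5932 and 5033 against 10213 and 8472, and in the BT media 5932 and 4381 against 7712 and 6732. Ligated rabbits lay above sham rabbits without overlap in all 4 tissues, and rabbit 3 above rabbit 4 in each. The ratio of the means was 1.53, 1.58, 1.70 and 1.40 in this order, and 1.41 to 1.68, 1.43 to 1.75, 1.55 to 1.86 and 1.22 to 1.65 when any 1 rabbit was left out. A sum weights genes by their abundance. The gene-by-gene medians of the log2 difference were 0.63, 0.64, 0.80 and 0.41.

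Within the core, the constitutive beta subunits stayed close together in the intima, where the log2 differences of all 7 lay between 0.29 and 0.86 in the BA and between 0.56 and 0.72 in the BT. PSMB5, which carries the chymotrypsin-like site that proteasome inhibitors target, had 415 and 579 CPM in the sham and 867 and 936 CPM in the ligated BA intima. In the BT media it had 411 and 332 against 807 and 671 CPM, a log2 difference of 1.00 (SE 0.30, q = 0.117 by edgeR). PSMB4, a subunit without a catalytic site of its own, had 533 and 528 against 1133 and 895 CPM in the BA media, a log2 difference of 0.95 (SE 0.28, q = 0.200 by edgeR). PSMB6, the caspase-like subunit, differed least of the constitutive subunits in the media, with log2 differences of 0.20 (SE 0.27) at the BA and 0.22 (SE 0.30) at the BT, and its groups overlapped there. PSMB7, the trypsin-like subunit, had 331 and 317 against 507 and 532 CPM in the BA media and 314 and 294 against 423 and 319 CPM in the BT media, without overlap in either. In the alpha ring, PSMA1 had 459 and 353 against 873 and 733 CPM in the BA intima (log2 difference 0.98, SE 0.45, q = 0.842 by edgeR) and was without overlap in every tissue. PSMA4 stood apart from the other alpha subunits, with 4.67 to 56.3 CPM over the 16 libraries and log2 differences of -0.80 (SE 0.83) and -0.42 (SE 0.94) in BA and BT media. Its ligated libraries lay below both sham libraries in the BA media. PSMA3, PSMB6 and PSMB1 had the highest mean CPM of the proteasome genes, at 1127, 897 and 745.

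**Figure D2:**
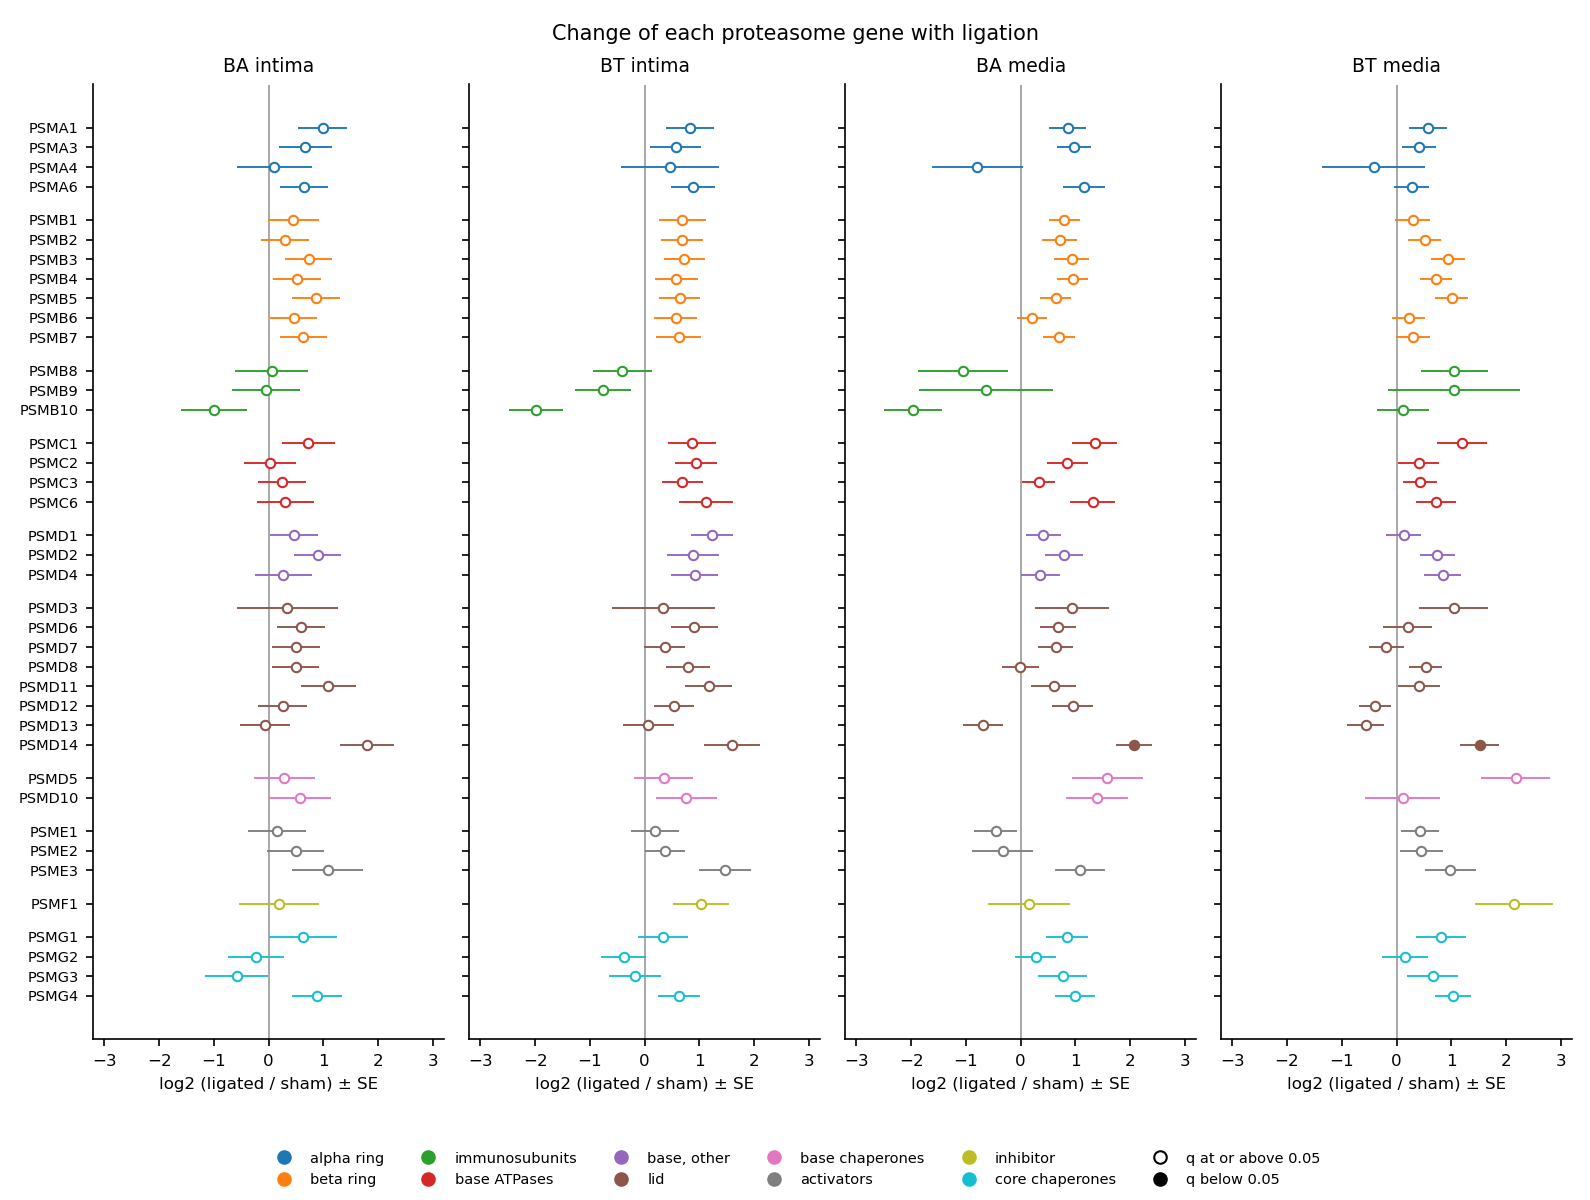
Log2 difference between ligated and sham libraries (horizontal axes, with the standard error of the edgeR fit) for each proteasome gene tested, in 4 panels by tissue and coloured by role, with filled symbols for q below 0.05. PSMC4 and PSMC3IP, with few counts, are not drawn. Most genes of core and cap lie right of 0, PSMD14 lies at 1.52 to 2.06 and PSMB10 at -0.99 to -1.98 outside the BT media.

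The regulatory particle recognises ubiquitinated proteins. Without PSMC5, which was not analysed here, the 18 cap genes comprise subunits of this particle and the base assembly chaperones PSMD5 and PSMD10. Their summed CPM was 3166 and 2879 in the sham and 4114 and 4376 in the ligated BA intima, and 3050.4 and 2543 against 5249 and 4652 in the BT intima. In the media it was 2990.0 and 2809 against 4653 and 4723 at the BA, and 3236 and 2922 against 3605 and 4237 at the BT. Ligated rabbits lay above sham rabbits without overlap in each tissue, with ratios of the means of 1.40, 1.77, 1.62 and 1.27 in the order given.

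PSMD14, the lid subunit that cuts ubiquitin chains off substrates, showed the clearest difference. In the BA media it had 121 and 103 CPM in sham rabbits and 488 and 437 CPM in ligated rabbits, a log2 difference of 2.06 (SE 0.33), or 4.18-fold, with q = 0.0371 by edgeR. In the BT media it had 143 and 119 against 275 and 466 CPM, a log2 difference of 1.52 (SE 0.36), or 2.86-fold, with q = 0.0468 by edgeR. In the intima its levels were 135 and 74.2 against 396 and 333 CPM at the BA (log2 difference 1.79, SE 0.49, q = 0.673 by edgeR) and 161 and 78.5 against 431 and 285 CPM at the BT (1.59, SE 0.51, q = 0.341 by edgeR). All 8 ligated libraries thus lay above all 8 sham libraries for this gene. Without any 1 rabbit the difference in the BA media was 1.94 to 2.2 with q from 0.144 to 0.496 by edgeR, and without rabbit 6 that in the BT media was 1.08 with q = 0.484. In a fit over all 16 libraries q was 0.0571 at the BA and 0.173 at the BT, and with RLE scaling, DESeq2's way to size a library, it was 0.0563 at the BT.

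**Figure D3:**
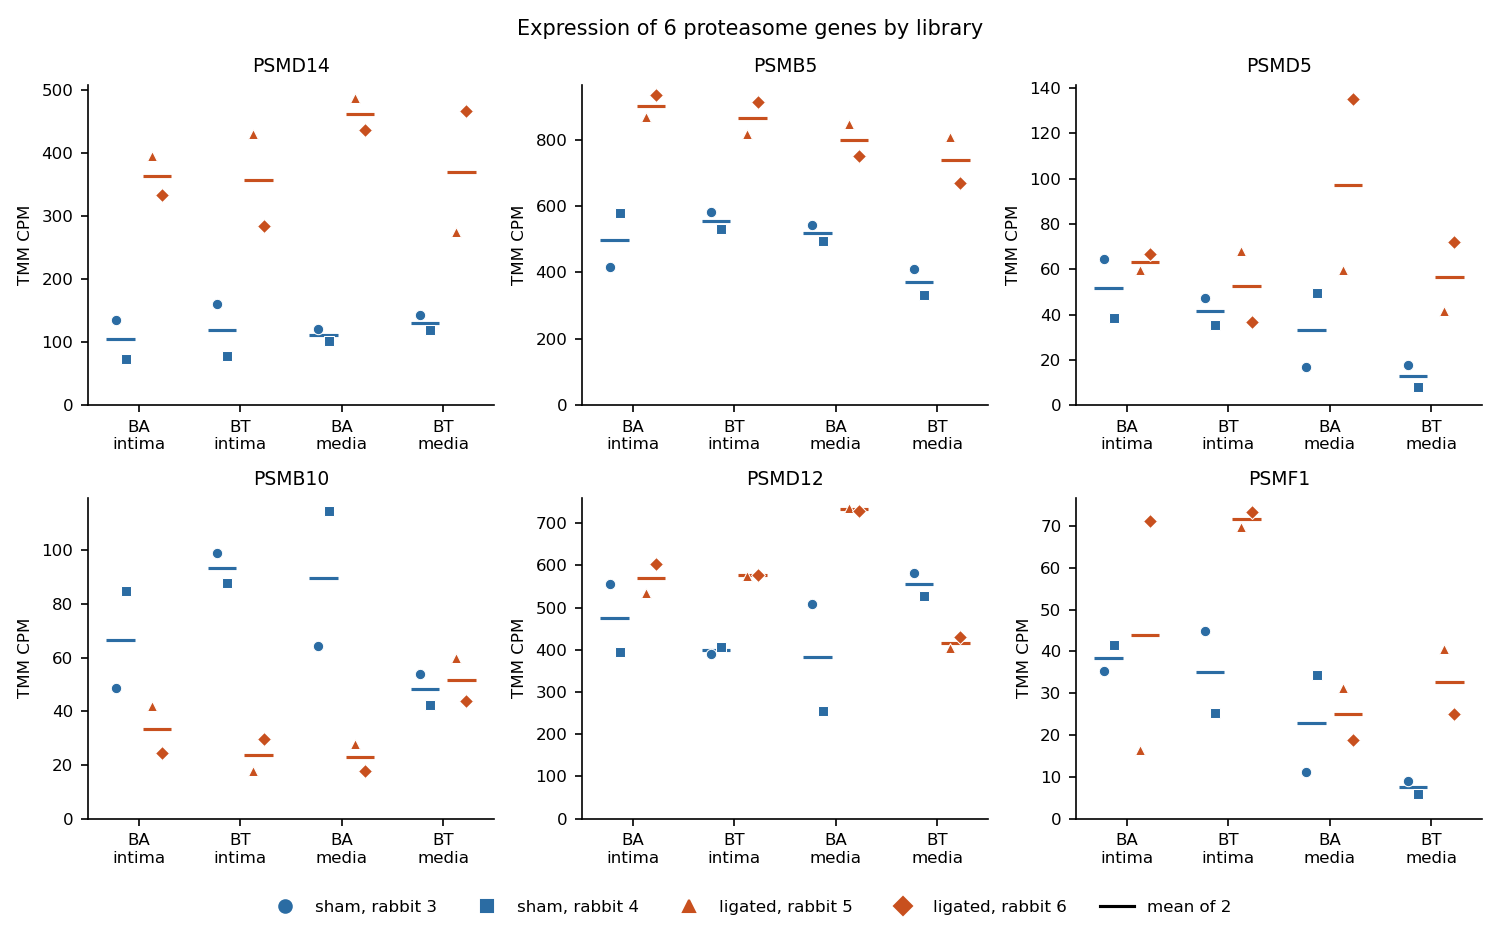
TMM-scaled CPM (vertical axes, each from 0) of PSMD14, PSMB5, PSMD5, PSMB10, PSMD12 and PSMF1 in each library, by tissue. Symbols are single rabbits (blue sham, orange ligated) and lines are the means of 2. PSMD14 runs from 74.2 to 161 CPM in the sham libraries and from 275 to 488 CPM in the ligated libraries, PSMB10 is low after ligation outside the BT media, and PSMD12 is above sham in the BA media and below sham in the BT media.

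The other lid genes were less uniform. PSMD11, a scaffold subunit of the lid, had 148 and 75.5 against 218 and 260.0 CPM in the BA intima and 128 and 102 against 314 and 205 CPM in the BT intima, with log2 differences of 1.09 (SE 0.50) and 1.17 (SE 0.43). In the media its groups overlapped at both locations. PSMD12, also of the lid, had 508 and 256 against 736 and 729 CPM in the BA media but 582 and 528 against 405 and 430 CPM in the BT media. Its log2 difference was 0.95 (SE 0.38) at the BA and -0.40 (SE 0.29) at the BT, in the directions of the smooth muscle markers, and the difference between these differences was -1.36 (SE 0.46, unadjusted p = 0.00977, q = 0.722 by edgeR). PSMD13 lay below sham in both media, with 154 and 206 against 112 and 109 CPM at the BA (log2 difference -0.69, SE 0.36) and 168 and 211 against 125 and 130 CPM at the BT (-0.57, SE 0.34). At the BA this was opposite to the direction of the smooth muscle markers. PSMD7 had a log2 difference of -0.19 (SE 0.32) in the BT media and of 0.64 (SE 0.32) in the BA media. PSMD3, at 7.17 to 55.0 CPM, overlapped between sham and ligated rabbits in the intima and lay above sham in both media.

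In the base of the cap, the ATPase PSMC1 lay above sham in each tissue, with 68.2 and 47.4 against 127 and 165 CPM in the BA media (log2 difference 1.35, SE 0.41, q = 0.205 by edgeR). PSMC6 had 255 and 116 against 455 and 461 CPM there (1.31, SE 0.42, q = 0.222 by edgeR) and overlapped in the BA intima and the BT media. PSMC4 had 0 to 57 counts per library, and a difference was not detectable at such counts. The other measured ATPases, PSMC1, PSMC2, PSMC3 and PSMC6, had at least 190 counts in every library. Why PSMC4 had so few was not tested. PSMC3IP, no subunit of the particle, had counts in 4 libraries, with at most 11 in any. PSMD1, the large scaffold of the base, had 219 and 172 against 453 and 466 CPM in the BT intima, a log2 difference of 1.23 (SE 0.38, q = 0.326 by edgeR), but 320 and 247 against 305 and 309 CPM in the BT media, where its groups overlapped. PSMD2, its partner, was without overlap in all tissues, with 148 and 147 against 280 and 267 CPM in the BA intima. PSMD5 and PSMD10 are chaperones that hold the ATPases during assembly of the base. PSMD5 had 17.7 and 7.90 against 41.8 and 71.9 CPM in the BT media (log2 difference 2.17, SE 0.63, q = 0.103 by edgeR) and 16.8 and 49.7 against 59.6 and 135 CPM in the BA media (1.58, SE 0.64, q = 0.331 by edgeR), but overlapped in the intima of both locations. PSMD10 had 22.7 and 14.2 against 46.9 and 49.8 CPM in the BA media (1.40, SE 0.56) and overlapped in the BT media.

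The activators differed among themselves. PSME3, which forms a ring that binds the core in the nucleus, lay above sham in every tissue, with 28.4 and 29.1 against 64.9 and 94.2 CPM in the BT intima (log2 difference 1.47, SE 0.47, q = 0.341 by edgeR). PSME1 and PSME2 join in the ring linked to antigen presentation. PSME1 overlapped in the intima of both locations, lay below sham in the BA media and above it in the BT media. It had 170 and 189 against 165 and 95.1 CPM in the BA media and 117 and 141 against 182 and 161 CPM in the BT media. PSME2 had 131 and 189 against 197 and 57.1 CPM in the BA media, where the ligated rabbits lay on either side of the sham rabbits, and 107 and 157 against 225 and 134 CPM in the BT media, and it lay above sham in the BT intima. The inhibitor PSMF1 had 9.01 and 5.97 against 40.5 and 25.0 CPM in the BT media, a log2 difference of 2.14 (SE 0.72, q = 0.161 by edgeR), and 11.1 and 34.4 against 31.1 and 18.9 CPM in the BA media, where the groups overlapped.

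The PSMG chaperones help to assemble the alpha ring and were mixed. PSMG4 lay above sham in each tissue, with 138 and 141 against 322 and 244 CPM in the BT media (log2 difference 1.03, SE 0.33, q = 0.144 by edgeR). PSMG1 had 64.2 and 66.7 against 115 and 117 CPM in the BA media (0.84, SE 0.38, q = 0.383 by edgeR) and overlapped in the BA intima. PSMG2, which pairs with PSMG1, had 117 and 134 against 72.7 and 141 CPM in the BA intima and 157 and 135 against 91.2 and 133 CPM in the BT intima. PSMG3, which pairs with PSMG4, had 41.1 and 68.5 against 32.9 and 39.9 CPM in the BA intima but 38.3 and 51.2 against 73.3 and 77.1 CPM in the BA media. The log2 differences of PSMG3 were -0.59 (SE 0.57) and 0.77 (SE 0.44).

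The immunosubunits PSMB8, PSMB9 and PSMB10 differed in direction between tissues. The ratio of their summed CPM, ligated over sham, was 0.870 in the BA intima, with overlap, 0.560 in the BT intima and 0.379 in the BA media, both without overlap and lower, and 1.53 in the BT media, without overlap and higher. PSMB10 had 48.5 and 85.0 CPM in the sham against 42.1 and 24.5 CPM in the ligated BA intima, 99.1 and 88.0 against 17.9 and 29.6 CPM in the BT intima, and 64.5 and 115 against 28.0 and 17.8 CPM in the BA media. In the BT media it had 54.0 and 42.3 against 59.8 and 43.7 CPM, with overlap. Ligated lay below sham without overlap in the first 3 of these tissues. The log2 differences were -0.99 (SE 0.60, q = 0.862), -1.98 (SE 0.49, q = 0.279), -1.96 (SE 0.53, q = 0.155) and 0.11 (SE 0.48, q = 0.931) by edgeR. The difference in the BT media less that in the BA media was 2.07 (SE 0.70, unadjusted p = 0.00969, q = 0.722 by edgeR), and the difference in the BT intima less that in the BT media was -2.10 (SE 0.65, unadjusted p = 0.00868, q = 0.642 by edgeR). The summed CPM of the macrophage markers (8 of 9 in the table) lay in the same direction in the BT intima, with 136 to 1090.4 in sham and 56.7 to 121 in ligated libraries, and in the BA media, with 244 to 323 against 51.6 to 159. It overlapped in the BA intima and was 67.1 to 90.6 in sham and 101 to 165 in ligated BT media. Among sham libraries, the macrophage sum was higher in rabbit 3 than in rabbit 4 in each tissue. PSMB10 was higher in rabbit 3 at the BT and lower in rabbit 3 at the BA. The leptomeningeal and adventitial markers were also lower after ligation in the BT intima and in both media. The part of either marker set in the values of PSMB10 was not tested. PSMB8 had 46.8 and 165 against 69.4 and 150 CPM in the BA intima, 20.4 and 54.3 against 29.0 and 7.08 CPM in the BA media and 13.1 and 32.4 against 56.4 and 38.2 CPM in the BT media, where alone the groups did not overlap. PSMB9 had 40.6 and 135 against 92.8 and 75.5 CPM in the BA intima and 68.4 and 145 against 63.4 and 61.6 CPM in the BT intima. In the media PSMB9 had 1.6 and 56.1 against 15.3 and 21.0 CPM at the BA and 0 and 33.4 against 35.5 and 34.0 CPM at the BT. The ligated values of PSMB9 thus lay between those of the sham rabbits at the BA and just above the higher of them at the BT. A count of 0, as in the sham BT media of rabbit 3, allows up to 3 counts by counting error alone.

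The sham rabbits also differed from each other. Of the proteasome genes, 7 were lower in rabbit 3 than in rabbit 4 in 4 of 4 tissues (17.1%, beside 11.5% of all genes tested), namely PSMB8, PSMB9, PSME1, PSME2, PSMD4, PSMD13 and PSMG3. There were 12 that were higher in rabbit 3 in 4 of 4 (29.3%, beside 10.8%), namely PSMA1, PSMA3, PSMA6, PSMB1, PSMB2, PSMB4, PSMB7, PSMC1, PSMC6, PSMD1, PSMD11 and PSMD14. These genes were named after their values were seen. In the intima the endothelial markers were also lower in rabbit 3, with a summed 1886 against 5942 CPM at the BA and 1236 against 5537 CPM at the BT. The same held in the media, with 530 against 833 and 593 against 1667 CPM. Leptomeningeal and adventitial markers were higher in the intima of rabbit 3, with 8590 against 2904 CPM (BA) and 15989 against 4635 CPM (BT). So were macrophage markers there, with 496 against 77.1 and 1090 against 136 CPM. The part of these differences in the values of PSMB8 and PSMB9 was not tested. PSMB8 and PSMB9 lie on either side of TAP1, which carries peptides to class I molecules, and PSME1 and PSME2 lie within 3 genes of each other on their chromosome in the RefSeq gene table.

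The counts of each immunosubunit were also taken per 100 counts of the constitutive subunit that it replaces. Such a ratio falls when the constitutive subunit is higher, as PSMB5 and PSMB7 were in both ligated libraries of each tissue, and it gives no separate measure of the immunosubunit. Its size depends on gene lengths, so only its differences between libraries are described. PSMB10 per 100 counts of PSMB7 was 15.5 and 33.8 in the sham and 10.3 and 5.20 in the ligated BA intima, 25.1 and 33.5 against 3.39 and 6.14 in the BT intima, 19.5 and 36.2 against 5.51 and 3.35 in the BA media, and 17.2 and 14.4 against 14.1 and 13.7 in the BT media. Ligated lay below sham without overlap in each tissue. In the BT media PSMB10 itself overlapped between the groups, and the lower ratio there went with the higher CPM of PSMB7. PSMB8 per 100 counts of PSMB5 was 13.5 and 36.1 against 10.6 and 12.6 in the BT intima and 3.75 and 11 against 3.42 and 0.945 in the BA media, although PSMB8 itself overlapped in both. In the BA intima and the BT media the ratio of PSMB8 overlapped between the groups. PSMB9 per 100 counts of PSMB6 was 10.1 and 17.0 against 5.86 and 5.26 in the BT intima and overlapped elsewhere.

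**Figure D4:**
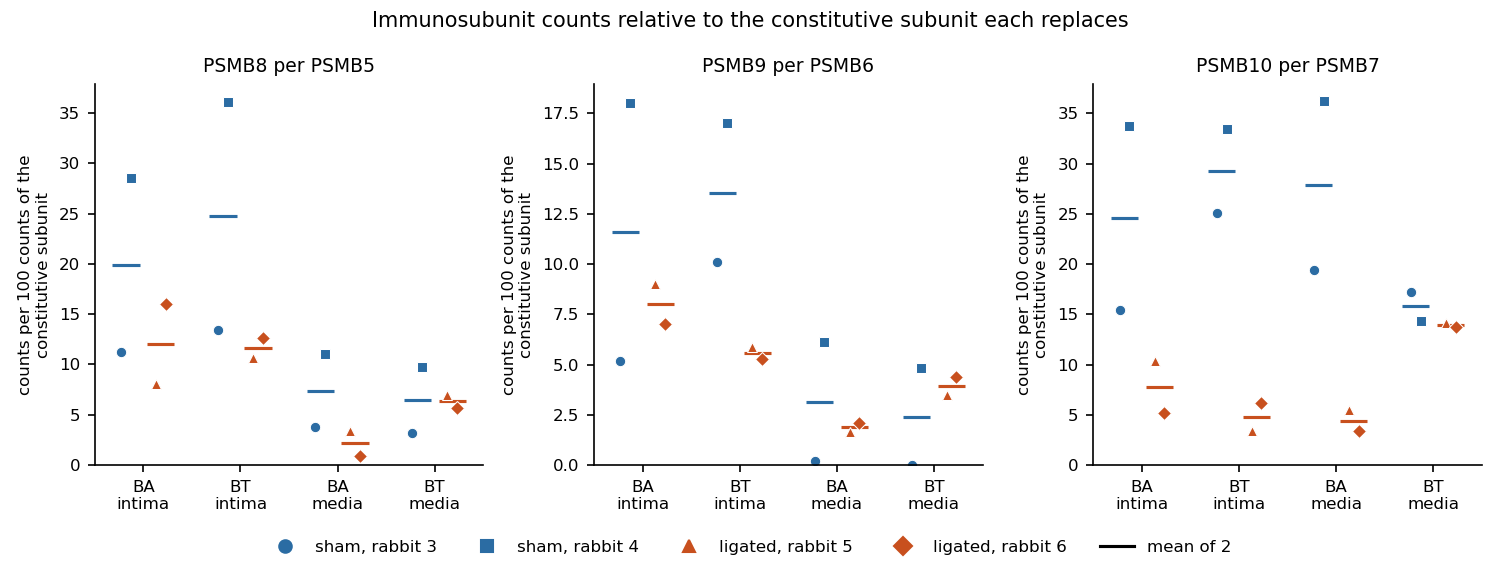
Counts of each immunosubunit per 100 counts of the constitutive subunit it replaces (vertical axes, each from 0) in each library, by tissue. Symbols are single rabbits (blue sham, orange ligated) and lines are the means of 2. PSMB10 per PSMB7 lies at 3.35 to 10.3 in the ligated libraries outside the BT media and at 14.4 to 36.2 in the sham libraries, and PSMB8 and PSMB9 are higher in the intima than in the media.

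Across the 16 libraries, the core genes other than the immunosubunits varied together, with a median Pearson r of 0.75 over their 55 pairs (range -0.28 to 0.96, on log2(CPM + 0.5)). With the cap genes the median was 0.58 over 198 pairs, with the PSMG chaperones 0.26 over 44 pairs and with the immunosubunits -0.14 over 33 pairs. PSME1 and PSME2 had r = 0.90 with each other, PSMB8 and PSMB9 had r = 0.75, and the immunosubunits with PSME1 and PSME2 had a median r of 0.62 over 6 pairs. PSMB10 had r = -0.76 with PSMB7 and r = 0.04 with PSMB9. These values describe 16 libraries that share 4 rabbits and the contrast of ligation, layer and depth.

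The layers differed little in most of the core and cap. The summed CPM of the core without immunosubunits was, within a rabbit and location, 0.808 to 1.25 times as high in the intima as in the media, with a median of 1.02 over 8 pairs. For the cap the ratio was 0.870 to 1.46 with a median of 0.98. The immunosubunits together were higher in the intima in 8 of 8 pairs, by 1.11 to 5.44 times with a median of 2.30, and PSME1 and PSME2 together in 7 of 8 pairs, with a median of 1.88. Of the single genes, PSMB8, PSMB9, PSME2 and PSMA4 were higher in the intima in 8 of 8 pairs, as were 4.87% of all genes tested, and PSMG4 was higher in the media in 8 of 8 pairs, as were 3.56% of all genes. The 8 pairs came from 4 rabbits.

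In the edgeR comparison of intima with media, averaged over sham and ligated rabbits, no proteasome gene passed the threshold at the BA, where 0.0841% of all genes did, or at the BT, where 1.13% did. DESeq2 called 1 at the BA (PSMB8) and 3 at the BT (PSMB8, PSMF1 and PSME2), beside 3.02% and 7.08% of all genes, which is near the share of the 40 proteasome genes. With rabbit as a replicate block edgeR called 0 and 1, the latter PSMB8 with q = 0.0290, beside 0.557% and 2.66% of all genes. At an unadjusted p under 0.05, 4 proteasome genes were higher and 1 was lower in the intima at the BA, beside 11.6% of all genes in either direction, and 4 were higher and 0 lower at the BT, beside 15.4%. The log2 difference of PSMB8 was 2.08 (SE 0.58, q = 0.194 by edgeR) at the BA and 1.83 (SE 0.42, q = 0.0672 by edgeR) at the BT. PSMB9 had 1.92 (SE 0.79) and 1.74, and PSMB10 had 0.07 and -0.07 (SE 0.32), so that the immunosubunits differed among themselves in this respect. PSME2 had 1.05 (SE 0.41) at the BA and 0.97 (SE 0.27) at the BT, PSME1 had 0.65 (SE 0.35) and 0.86 (SE 0.27), and PSMF1 had 0.79 and 1.69 (SE 0.39, q = 0.0672 by edgeR). PSMA4 had 1.25 (SE 0.51) and 1.45 (SE 0.70). On the side of the media, PSMG1 had -1.04 (SE 0.36) at the BA but -0.06 (SE 0.30) at the BT, PSMG4 had -0.37 (SE 0.27) and -0.47 (SE 0.24), PSME3 had -0.56 (SE 0.40) and -0.06 (SE 0.31), and PSMD3 had -0.64 (SE 0.63) and -0.23 (SE 0.59). PSMD14 did not differ detectably between layers, with -0.08 (SE 0.31) at the BT. The median over the tested proteasome genes was -0.03 at the BA and 0.18 at the BT, beside 0.07 and 0.11 over all genes. At the BT the number above 0 was 31 of 40, beside 54.8% of all genes. It was 39 of 40 when libraries were sized by their totals alone, beside 65.0% of all genes.

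**Figure D5:**
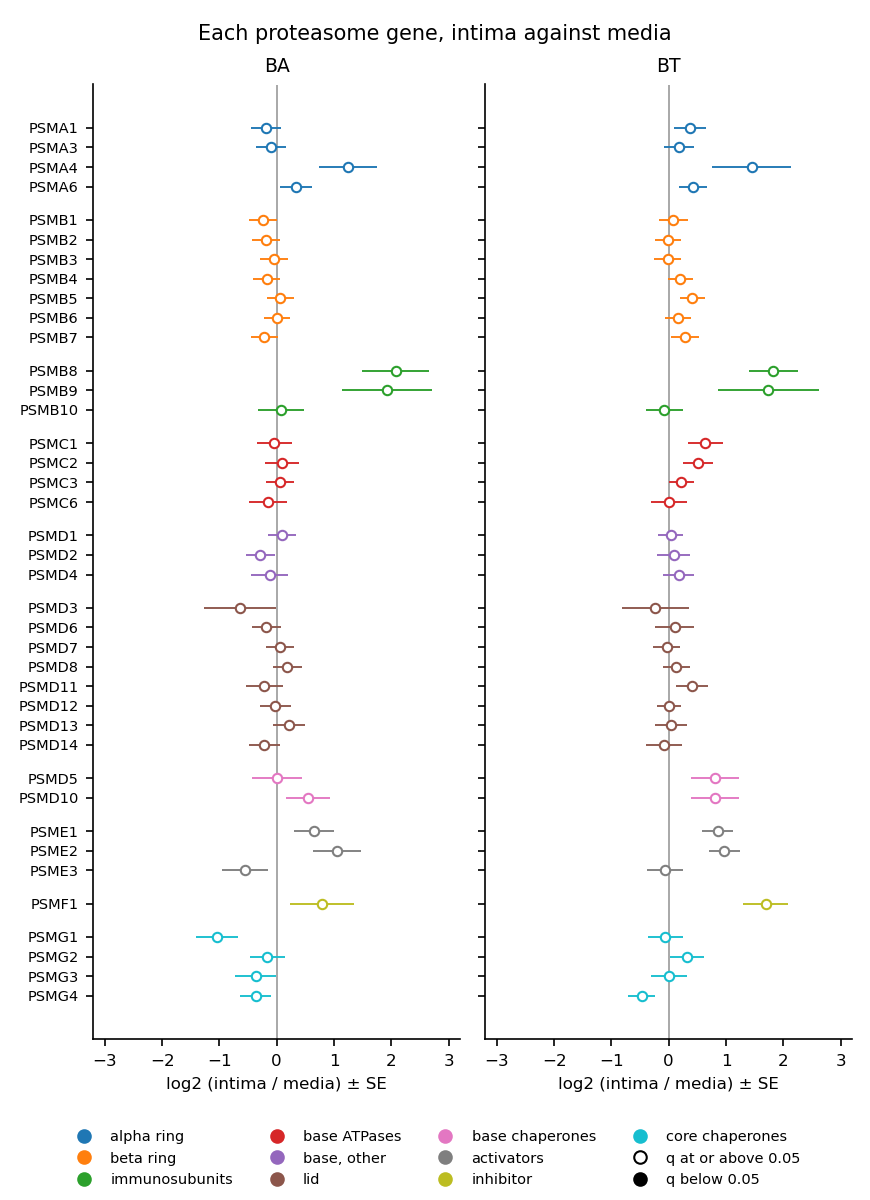
Log2 difference between intima and media (horizontal axes, with the standard error of the edgeR fit), averaged over sham and ligated rabbits, for each proteasome gene tested at the BA and the BT, coloured by role. Open symbols mark q at or above 0.05, which holds for every gene drawn. PSMC4 and PSMC3IP, with few counts, are not drawn. PSMB8 and PSMB9 lie at 1.74 to 2.08, PSME1 and PSME2 at 0.65 to 1.05, and most genes of core and cap lie near 0.

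Between the locations no proteasome gene passed the threshold. In the media 30 of 39 lay lower and 9 higher at the BT, where 49.8% of all genes lay higher. The median log2 difference there was -0.15 beside -0.0022 over all genes. In the edgeR comparison of the BT with the BA, 0 of 41 proteasome genes passed the threshold in the intima (0% of all genes) and 0 of 39 in the media (0.032%), and DESeq2 called none in either layer. At an unadjusted p under 0.05 there were none in the intima, beside 3.09% of all genes, and 1 in the media, beside 5.03%. With rabbit as a replicate block there were 4 in the media, all lower, beside 7.79%. Without the block the gene was PSMD5, lower at the BT with a log2 difference of -1.09 (SE 0.44, q = 0.963 by edgeR). In the intima the smallest p-values belonged to PSMC2 (0.49, SE 0.29), PSMD2 (0.37, SE 0.30) and PSMG1 (0.39, SE 0.37) on the side of the BT and to PSMC4, PSMD10 (-0.33, SE 0.37) and PSMD5 (-0.29, SE 0.37) on the side of the BA. In the media they belonged to PSMD1 (0.26, SE 0.22), PSMD7 (0.22, SE 0.22) and PSMB8 (0.35, SE 0.52) and, on the side of the BA, to PSMD5, PSMG1 (-0.59, SE 0.29) and PSMD11 (-0.54, SE 0.28). All 11 core genes without the immunosubunits had values below 0 in the media, from -0.37 to -0.07. No proteasome gene was higher at the BT, or at the BA, in 8 of 8 pairs of the same rabbit and layer, beside 0.506% and 0.437% of all genes.

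Whether the change with ligation differed between locations or layers was tested as an interaction. No proteasome gene passed in the intima (0% of all genes) or the media (0.0213%) for location, or at the BA (0%) or the BT (0%) for layer, and DESeq2 called none in these 4 comparisons. At an unadjusted p under 0.05 there were 0 in the intima beside 3.12% of all genes, 2 in the media (PSMB10 and PSMD12) beside 6.43%, 0 at the BA beside 2.65% and 3 at the BT (PSMB10, PSMD1 and PSMD5) beside 5.92%. With rabbit as a replicate block the number in the media was 5 higher and 3 lower, beside 9.07% of all genes, and the smallest q of a proteasome gene there was 0.0541 by edgeR. For PSMD1 at the BT, the difference with ligation in the intima less that in the media was 1.10 (SE 0.45, q = 0.827 by edgeR), and for PSMD5 it was -1.84 (SE 0.82, q = 0.838 by edgeR).

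The surrounding pathway was described with 4 further gene lists, none of whose genes passed the threshold with ligation in any tissue by edgeR. Of the proteasome partners outside the name rule (assembly factors, shuttle receptors, deubiquitinases and the segregase VCP, with 20 of 27 in the table), 17 of 20 had values above 0 in the BA intima, 13 of 19 in the BT intima, 12 of 19 in the BA media and 15 of 19 in the BT media, with medians of 0.50, 0.42, 0.68 and 0.21. At an unadjusted p under 0.05, 0, 1, 3 and 1 of them were higher, beside 2.52%, 4.3%, 6.62% and 7.96% of all genes, and none was lower. VCP, which pulls ubiquitinated proteins out of complexes, had 107 and 57.2 against 112 and 213 CPM in the BA intima (log2 difference 0.97, SE 0.55), and UBQLN1, a shuttle receptor, had 59.4 and 63.4 against 122 and 118 CPM in the BA intima (0.97, SE 0.48). The COP9 signalosome resembles the lid of the cap and has a subunit, COPS5, of the same enzyme family as PSMD14. Of its 8 measured genes, 5, 6, 7 and 6 had values above 0, and COPS5 had 243 and 208 against 512 and 508 CPM in the BA media (1.19, SE 0.31, q = 0.138 by edgeR) and 230.4 and 207 against 416 and 396 CPM in the BT media (0.90, SE 0.31, q = 0.166 by edgeR).

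Genes that supply and charge ubiquitin were mixed. Of 8 in the table, 5 of 8, 3 of 8, 5 of 7 and 6 of 7 had values above 0. UBB, a polyubiquitin gene, lay below sham in 3 tissues, with 495 and 499 against 221 and 127 CPM in the BA media (log2 difference -1.50, SE 0.36, q = 0.114 by edgeR), 618 and 1379 against 403 and 302 CPM in the BT intima (-1.49, SE 0.51, q = 0.358 by edgeR) and 403 and 573 against 302 and 238 CPM in the BT media (-0.85, SE 0.32, q = 0.219 by edgeR), and overlapped in the BA intima. UBA1, the enzyme that activates ubiquitin, had 43.3 and 51.0 against 132 and 94.7 CPM in the BT media (1.27, SE 0.42, q = 0.150 by edgeR). Of the genes for peptide loading and their interferon regulators (9 of 13 in the table), 4 of 9, 6 of 9, 4 of 7 and 7 of 8 had values above 0 with ligation. PDIA3, a chaperone of the loading complex, had 432 and 238 against 1147 and 1001 CPM in the BT intima (1.68, SE 0.46, q = 0.286 by edgeR). Between layers, B2M, the light chain of class I molecules, was higher in the intima of the BT, with 5899, 8349, 13479 and 10406 CPM against 2236, 2965, 3663 and 3915 CPM in the media of rabbits 3 to 6, a log2 difference of 1.56 (SE 0.26, q = 0.0367 by edgeR).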

How the data were processed

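RNA-seq counts of 16 libraries (4 rabbits, 2 locations, 2 layers) were used. The authors amplified the RNA by SMART-Seq v4, prepared libraries with Nextera, and read them from one end on a NextSeq500. STAR placed the reads on oryCun2, and reads with a unique position were assigned to Ensembl genes by featureCounts 1.6.2. The counting was set to reverse-stranded reads, while the kit does not mark strand, so reads of the other orientation may be missing from the counts, and the depths given are those of the counted reads. What was deposited is the raw count of each symbol, without normalization. The entry without a symbol, with 13.8% to 18.7% of the counts of a library, was left out, and 22 symbols that had become dates were kept unmapped. Depth ran from 2154863 to 17686105 counts. Genes with near-identical copies lose reads under unique mapping. In the RefSeq gene table (assembly mOryCun1.1), which held all 41 genes and was used for names and neighbours, PSMC1, PSMC2, PSMC3IP, PSMD1, PSMD10 and PSME1 overlap another gene, and without strand their reads cannot be fully told apart from those of the partner.

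Counts were fitted with edgeR 4.0.16 in R 4.3.3 (TMM scaling over all genes, quasi-likelihood fit with legacy = TRUE, 2-sided F test), in separate fits of 2 ligated and 2 sham libraries per tissue, and of 8 libraries per location (intima minus media) or per layer (BT minus BA) with their interactions with ligation. Genes with a group mean above 1 CPM, with TMM factors of the libraries in the fit, were tested. Sums, ratios and correlations used Python 3.11.15, pandas 2.3.3 and numpy 2.4.6. With ligation, p-values rest on 2 rabbits per group, with a spread that edgeR estimates partly from other genes. The fits for layer, location and interactions treated 8 libraries of 4 rabbits as independent, except where rabbit was a block. Their p-values thus leave out the pairing by animal. Alternatives were RLE scaling, library totals alone, all genes with a count, DESeq2 1.42.0, a fit over 16 libraries, rabbit as a replicate block, and leaving out each rabbit. Sums under other scalings and without a rabbit were added after seeing the data. The edgeR test of each comparison with TMM scaling was tried on simulated data, and the alternatives were not.

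The layers and locations of 1 rabbit pair by animal. Deviations from the group means correlated by 0.39 and 0.20 between BA and BT (intima, media) and by 0.20 and 0.07 between layers (BA, BT) in sham rabbits, and by 0.07, 0.06, -0.03 and 0.01 in ligated rabbits. Sham and ligated rabbits could not be paired. The genes, lists and tests were chosen with earlier results of these data known. Genes were named if they passed q 0.05, were among the 3 smallest p-values in either direction of a comparison, had the highest or lowest mean CPM or a count of 0, or were immunosubunits with their counterparts, activators, inhibitor or PSMG chaperones; from the other lists, those past q 0.05 or with the 2 smallest p-values of a tissue. Further genes named beside counts were chosen after their values were seen. Promoter motifs were not counted, as no sequences were used here.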

Additional observations from a re-analysis of the deposited data

Results flagged for a closer look

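Groups of 2 rabbits were too small for a check of single outlying samples. The values below were singled out because both ligated libraries lay above both sham libraries in one tissue and below both in the other. Each difference was tested as an interaction with edgeR, with q-values over all genes tested, and none passed the threshold.

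In the media, the log2 difference with ligation at the BT less that at the BA was 0.87 for PSME1 (SE 0.52, q = 0.824), which lay below sham at the BA and above it at the BT, and -1.36 for PSMD12 (SE 0.46, q = 0.722), which did the reverse. At the BA, the difference in the intima less that in the media was -1.38 for PSMG3 (SE 0.71, q = 1.00), below sham in the intima and above it in the media. At the BT the same contrast was 0.93 for PSMD12 (SE 0.42, q = 0.838), above sham in the intima and below it in the media, and -1.79 for PSMB9 (SE 1.73, q = 0.996), where 1 sham library of the media was at 0.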

How the results depend on the processing

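The number of proteasome genes past the threshold depended on the setting, and the cause was not tested. With ligation it was 0 (BA) and 0 (BT) for intima and 1 (BA) and 1 (BT) for media. With DESeq2 it was 1, 2, 6 and 3, beside 1.29%, 6.37%, 5.28% and 6.3% of all genes, and with all genes that had a count kept it was 1 for BA intima, 4 for BA media and 2 for BT media, beside 1.16%, 4.89% and 5.32% of all genes. In a fit over all 16 libraries it was 0 for BA media and 0 for BT media, beside 0.432% and 0.216% of all genes. With RLE scaling it was 0 in the BT media, beside 2.13%. Leaving out a rabbit leaves a lone library in a group, which is assumed to vary like the others, so calls of such fits are not counted here. Between layers it was 3 at the BA and 4 at the BT with all genes (4.21% and 7.57% of all genes passed), and 1 and 3 with DESeq2 (3.02% and 7.08%). At the BT it was 2 with library totals alone (1.93% of all genes) and 1 with a replicate block for rabbit (PSMB8, beside 2.66%). The block changed no other call at the threshold, though at an unadjusted p under 0.05 it moved the number from 1 to 4 between locations in the media and from 2 to 8 for location by ligation there. Medians and log2 differences without 1 rabbit are given below.

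Scaling by library totals alone moved the median of all genes by over 0.1 in several comparisons, from -0.15 to -0.29 in the BA media, from 0.03 to 0.17 in the BT media, from 0.07 to 0.26 between layers at the BA and from 0.11 to 0.34 at the BT. The proteasome medians became 0.58 and 0.65 with ligation in BA and BT media, 0.17 and 0.41 between layers at the BA and the BT, 0.19 for location by ligation in the media, and 0.12 and -0.0046 for layer by ligation at the BA and the BT. The number of proteasome genes above 0 between layers went from 19 to 30 of 40 at the BA and from 31 to 39 of 40 at the BT. The share of all genes above 0 went from 53.7% to 63.9% at the BA and from 54.8% to 65.0% at the BT. Without 1 rabbit the medians ran from 0.35 to 0.57 in the BA intima, 0.53 to 0.80 in the BT intima and 0.47 to 0.65 in the BT media with ligation, from -0.022 to 0.18 between locations in the intima, from -0.16 to 0.26 for location by ligation in the intima, and from -0.29 to 0.061 and -0.018 to 0.18 for layer by ligation at the BA and the BT. Single genes near 0 changed sign. PSMG2 in the BA intima ran from -0.77 to 0.16 and PSMD7 in the BT media from -0.44 to 0.022 without 1 rabbit. Between layers at the BT, PSMD3 was 0.0012 with library totals and -1.03 to 0.27 without 1 rabbit, and PSMD14 was 0.17 and -0.42 to 0.27. The sums of the core and cap stayed above sham under RLE scaling, library totals and without any 1 rabbit, settings added after seeing the data, with ratios of 1.17 to 1.95. Counts of genes without overlap, also added later, were 21, 28, 26 and 22 with RLE scaling, beside 15.9%, 19.8%, 21.0% and 24.7% of all genes, and 22, 26, 26 and 30 with library totals, beside 18%, 20.0%, 18.3% and 29.8%.

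With 2 rabbits per group and as few as 2154863 counts in a library, differences in genes of few counts such as PSMC4 and PSMA4 were not resolved. The reason for the few counts of these genes was not tested. For ligation, no block was fitted, as the rabbits of its groups are not paired. Promoter motifs were not run.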
